A study of Mus musculus with 4 samples.

Results

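The 10 genes described here encode fibrinogen and proteins that make, hold back or dissolve its clot. They are Fga, Fgb, Fgg, F2, F5, F10, Plg, Proc, Serpinc1 and Serpind1, taken by symbol from the 24015 genes of the deposited count tables, and all 10 were found there. They had been proposed as a set with differences between Control and Trim33-deficient libraries already known, so their values in that comparison are given as a description, without a test of the members. RNA was sequenced from mouse embryoid bodies, aggregates of embryonic stem cells that differentiate in suspension, all harvested on day 7. Per the labels, the outbred stem cell lines came from embryos homozygous for a Trim33-flox allele and carried UbcCreERT2, a tamoxifen-inducible Cre recombinase driven by the ubiquitin C promoter and so not restricted to one cell type. In the 2 Trim33-deficient libraries, the agent 4OH-Tamoxifen had been given on day 4 to bring about the deficiency. For the 2 Control libraries the stated genotype is wild type, and the labels do not say whether Control bodies received the agent or carried the floxed allele and Cre. Trim33 encodes a chromatin-bound ubiquitin ligase that works with SMAD proteins.

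Blood clots when a chain of proteolytic steps turns prothrombin into thrombin, which cuts fibrinogen so that it polymerises into fibrin. Plasmin, made from plasminogen, dissolves the fibrin, and protein C, antithrombin and heparin cofactor II hold the cascade in check. In adults most of these proteins are made by hepatocytes. Before the liver forms, the visceral endoderm of the yolk sac, an absorptive and secretory epithelium, makes many of the same plasma proteins, and embryoid bodies commonly form such an epithelium at their surface.

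The libraries held 10422738 to 13808837 counts in genes. Trim33 was counted 1203 and 1117 times in Control and 608 and 495 times in Trim33-deficient libraries, a log2 fold change of −1.23 (SE 0.13; edgeR gave adjusted p = 0.219 and DESeq2 adjusted p = 1.8e-06). Control replicate 1 was the least like the rest: its Pearson correlations over genes were 0.932 to 0.952, against 0.967 to 0.978 among the other 3 libraries, so the log2 fold changes of the members are also given without it. Levels are CPM, counts scaled to a common library size by TMM, and 1 count was worth 0.0721 to 0.0977 CPM. The labels call the 2 pairs of samples independent, without saying whether that means separate cell lines or cultures, so SDs and p-values cover the spread between these libraries only.

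The 3 fibrinogen genes lie side by side on mouse chromosome 3, and the data describe them together, so the bases before their annotated starts are shown first. They are followed by the stretch before F5, the member whose level behaved differently. Sequences are from RefSeq (GRCm38.p6), whereas the submitters' processing notes name mm9 for the counts. All are written 5′ to 3′. Capitals mark matches to the motifs searched.
Fga, chr3:83026003-83026152, plus strand: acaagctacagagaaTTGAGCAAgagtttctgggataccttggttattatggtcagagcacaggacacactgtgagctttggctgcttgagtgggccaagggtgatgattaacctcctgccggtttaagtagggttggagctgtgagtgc
Fgb, chr3:83049864-83050013, minus strand: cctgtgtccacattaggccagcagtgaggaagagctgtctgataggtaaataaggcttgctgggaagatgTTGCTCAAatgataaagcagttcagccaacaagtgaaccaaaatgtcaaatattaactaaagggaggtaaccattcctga
Fgg, chr3:83007574-83007723, plus strand: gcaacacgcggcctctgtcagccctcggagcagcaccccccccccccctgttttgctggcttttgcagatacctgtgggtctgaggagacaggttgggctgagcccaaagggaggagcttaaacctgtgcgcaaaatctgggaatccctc
F5, chr1:164151685-164151834, plus strand: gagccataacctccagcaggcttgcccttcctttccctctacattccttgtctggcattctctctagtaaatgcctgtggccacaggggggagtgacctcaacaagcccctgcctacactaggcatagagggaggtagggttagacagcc

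RefSeq promoter entries, 250 bases before to 50 after a start, were matched for 8 of the 10 members, all except Plg and Proc. They were searched on both strands for 5 short motifs of liver-enriched factors and of the core promoter. The C/EBP element TTGCNNAA was found in Fga at −135 to −128, in Fgb at −80 to −73 and in Serpinc1 at 5 to 12, and in 10.8% of the 32851 entries. The HNF4 element AAAGTCCA (1.25% of entries), the FOXA element TGTTTAC (3.65%), the GATA element AGATAA (11.2%) and the TATA element TATAAA (13.6%) were found in none of the 8. Fgg, F2, F5, F10 and Serpind1 held no match to any of the 5. No match overlapped another. A match describes these letters only and is not evidence of binding.

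Fibrinogen is built from alpha, beta and gamma chains encoded by Fga, Fgb and Fgg. Fgb was counted 184 and 181 times in Control and 44 and 25 times in Trim33-deficient libraries. Its level was 15.9 ± 2.44 CPM in Control bodies, against 2.65 ± 0.734 CPM under deficiency (SD, n = 2 each), 6.01-fold lower. Both Trim33-deficient libraries lay far below both Control libraries. Fga was counted 54 and 48 times in Control and 4 and 0 times in Trim33-deficient libraries. Its level was 4.43 ± 0.364 CPM in Control, against 0.288 and 0 CPM. A count of 0 in Trim33-deficient replicate 2 allows up to 0.256 CPM, 3 counts. Fgg was counted 35 and 27 times in Control and 5 and 3 times in Trim33-deficient libraries, at 2.67 ± 0.0480 and 0.308 ± 0.0738 CPM (SD, n = 2 each). None of the 3 chains overlapped between groups, and 21.4% of all genes tested were likewise lower without overlap. The log2 fold changes from the fit over all genes were −2.58 (SE 0.33) for Fgb, −4.76 (SE 0.93) for Fga (−3.89 with Trim33-deficient replicate 2 left out) and −3.06 (SE 0.50) for Fgg.

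**Figure D1:**
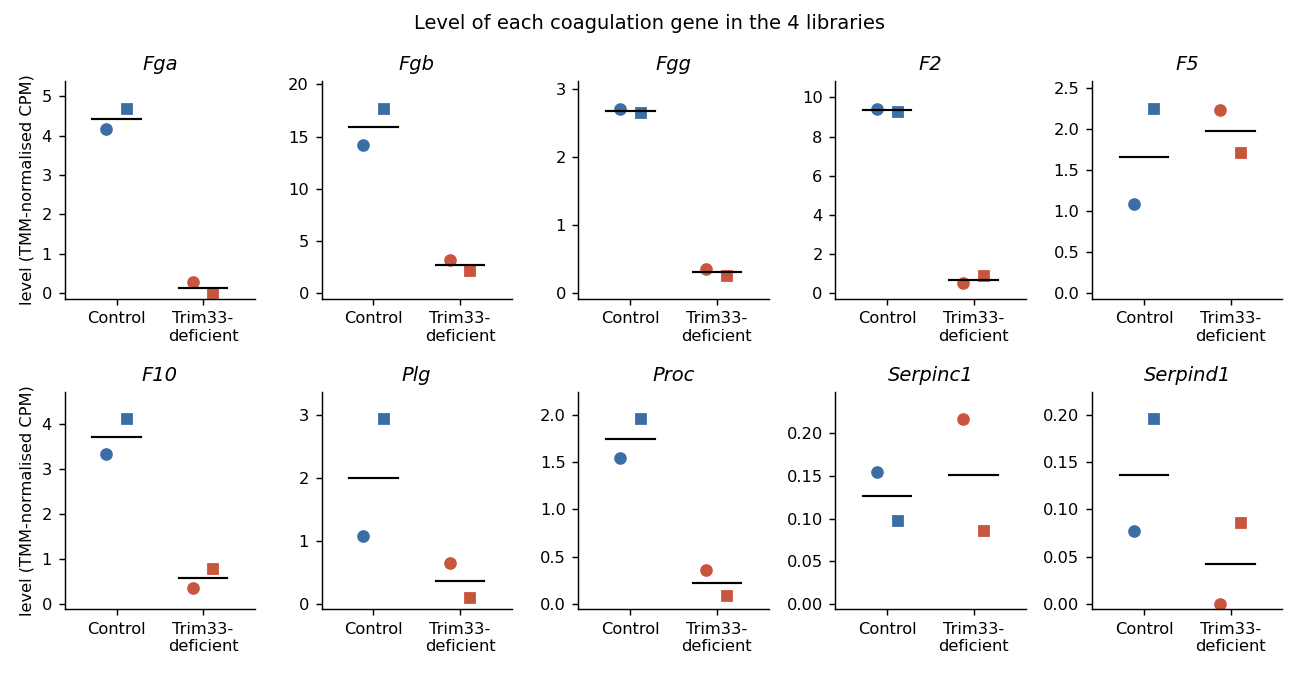
Level of each of the 10 genes (vertical axes, TMM-normalised CPM, each panel on its own scale from 0) in the 2 Control (blue) and 2 Trim33-deficient (red) libraries, with circles for replicate 1, squares for replicate 2 and bars at the group means. The groups are apart for Fga, Fgb, Fgg, F2, F10, Plg and Proc, and overlap for F5, Serpinc1 and Serpind1. Of all genes tested, 21.4% were lower without overlap.

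F2 encodes prothrombin, F10 the proenzyme of the protease that cleaves it, and F5 the cofactor of that protease. F2 was counted 122 and 95 times in Control and 7 and 10 times in Trim33-deficient libraries. Its level was 9.35 ± 0.106 CPM in Control bodies, against 0.679 ± 0.247 CPM under deficiency (SD, n = 2 each), 13.8-fold lower. The Control libraries were nearly equal, and the log2 fold change was −3.78 (SE 0.41). F10 was counted 43 and 42 times in Control and 5 and 9 times in Trim33-deficient libraries. Its level went from 3.71 ± 0.551 to 0.565 ± 0.289 CPM (SD, n = 2 each), a log2 fold change of −2.71 (SE 0.54). That value was −3.32 with Trim33-deficient replicate 2 left out and −2.25 with Trim33-deficient replicate 1 left out. The groups were again apart. F5 did not share this pattern. It was counted 14 and 23 times in Control and 31 and 20 times in Trim33-deficient libraries, or 1.08 and 2.25 against 2.24 and 1.71 CPM. Its groups overlapped, and Control replicate 1 was the lowest of the 4 libraries. The log2 fold change of F5 was 0.26 (SE 0.54), and leaving out Control replicate 1 gave −0.19 and leaving out Control replicate 2 gave 0.87, so no direction can be given.

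Plg encodes plasminogen, the proenzyme of plasmin. It was counted 14 and 30 times in Control and 9 and 1 times in Trim33-deficient libraries. Its level was 2.01 ± 1.31 CPM in Control bodies, against 0.367 ± 0.399 CPM under deficiency (SD, n = 2 each). The groups did not overlap, but replicates differed within each, and the gap between 14 and 9 counts is small. The log2 fold change of −2.35 (SE 0.99) was −1.47 without Control replicate 2 and −4.38 without Trim33-deficient replicate 1.

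Proc encodes protein C, whose active form cleaves activated factors V and VIII. It was counted 20 and 20 times in Control and 5 and 1 times in Trim33-deficient libraries. Its level went from 1.75 ± 0.288 to 0.223 ± 0.195 CPM (SD, n = 2 each), a log2 fold change of −2.87 (SE 0.74). Leaving out Trim33-deficient replicate 1, which leaves the library with 1 count, gave −4.19, and leaving out replicate 2 of that group gave −2.24. Serpinc1 and Serpind1, which encode the thrombin inhibitors antithrombin and heparin cofactor II, had too few counts to compare. Serpinc1 was counted 2 and 1 times in Control and 3 and 1 times in Trim33-deficient libraries, and Serpind1 was counted 1 and 2 against 0 and 1 times. All of these lie at or under 3 counts, so no fold is given for either inhibitor, and a difference was not detectable at this depth.

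The fit retained 14259 genes, and 8 of the 10 members. Of these, Fgb and F5 had at least 10 counts in all 4 libraries and F2 in 3. Fga, Fgg, F10, Plg and Proc reached 10 counts in the Control libraries only, so they could enter the fit only as genes high in that group. Counts alone limit their precision. Over the summed counts, the Trim33-deficient level was 3.56% of Control for Fga (exact 95% interval 0.95% to 9.38%), 7.10% for F2 (4.06% to 11.6%) and 17.1% for Fgb (13.1% to 22.2%). It was 20.6% for Plg (9.24% to 41.6%) and 124.9% for F5 (80.2% to 196.2%). These intervals cover counting error only and leave out the spread between libraries.

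The edgeR quasi-likelihood test, adjusted over all genes by Benjamini-Hochberg, called 0 of the 10 members, and it called 0.014% of all genes lower and 0% higher. At an unadjusted p under 0.05, edgeR had 6 members lower and 0 higher, against 4.78% and 3.06% of all genes. DESeq2 called 3 members lower, Fga, Fgb and F2, and 0 higher, against 0.807% and 0.182% of all genes. In 7 members the groups did not overlap and the Trim33-deficient one was lower, as in 21.4% of all genes tested, and in 0 members it was higher, as in 19.3%. Of the 8 members with enough counts, 7 had a log2 fold change below 0, as did 50.2% of all genes. Because the members were chosen on this contrast, these counts describe them and support nothing. The authors' deposited table holds 84 genes, and the highest DESeq adjusted p in it is 0.0496. It lists the same 3 members, with log2 fold changes of −3.77 for F2, −4.93 for Fga and −2.58 for Fgb. Without Control replicate 1, the values were −4.84 for Fga, −2.73 for Fgb, −3.04 for Fgg, −3.77 for F2, −2.87 for F10, −2.91 for Plg and −3.03 for Proc.

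**Figure D2:**
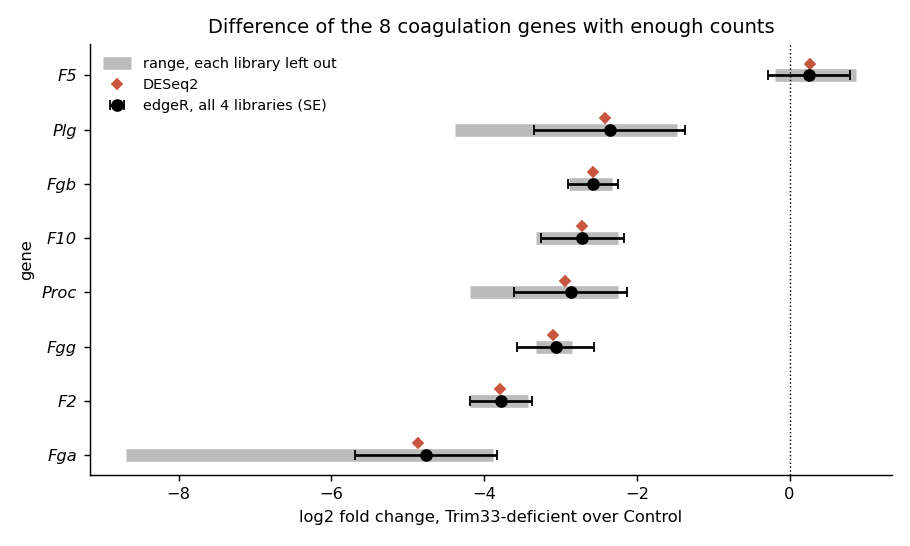
Log2 fold change, Trim33-deficient over Control (horizontal axis), of the 8 members with enough counts, with black points for the edgeR fit of all 4 libraries and bars of 1 SE, red diamonds for DESeq2, and grey bars for the range when each library is left out. The grey bar of Fga reaches −8.69, where only the Trim33-deficient library with 0 counts remains, and that of F5 spans 0.

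The members differed in how steady they were between replicates. In Control, the ratio of replicate 1 to replicate 2 was 1.02 for F2 and 1.03 for Fgg, 0.890 for Fga, and between 0.791 and 0.810 for Fgb, F10 and Proc. It was 0.482 for F5 and 0.369 for Plg. In the Trim33-deficient libraries, Fgb had a ratio of 1.49 and Fgg of 1.41, while F2 (0.591) and F10 (0.469) were higher in replicate 2. F5 had a ratio of 1.31, Proc of 4.22 and Plg of 7.60, and Fga had 4 counts against 0. Most of those ratios rest on few counts, so they are imprecise.

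Levels of different genes were compared per kb of their longest coding transcript. In Control, F2 stood at 4.70 ± 0.0534 and Fgb at 4.19 ± 0.642 CPM per kb (SD, n = 2), a gap within the spread of Fgb. With coding length in place of transcript length, Fgb came first, at 11.1 against 5.04 CPM per kb for F2. Fga (1.71 ± 0.141), Fgg (1.53 ± 0.0276) and F10 (1.48 ± 0.220 CPM per kb) followed. The libraries of F10 overlapped those of both, and Fga lay above Fgg in each, while with coding length F10 (2.51) lay above Fgg (2.01) and Fga (1.87 CPM per kb). Proc stood at 1.11 ± 0.183 and Plg at 0.727 ± 0.474 CPM per kb, which overlapped. F5 was lower, at 0.224 ± 0.111 CPM per kb. In Trim33-deficient bodies, by transcript length, Fgb was highest at 0.697 ± 0.193 CPM per kb, F2 followed at 0.342 ± 0.124, and F5 came next at 0.265 ± 0.0502, not separated from F2 or from F10 at 0.226 ± 0.115 CPM per kb (SD, n = 2). With coding length F10 (0.382) came above F2 (0.366) and F5 (0.301 CPM per kb), so the order after Fgb depends on the length used. Fga, at 0.0558 ± 0.0789 CPM per transcript kb, overlapped Plg, Proc, Serpinc1 and Serpind1.

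**Figure D3:**
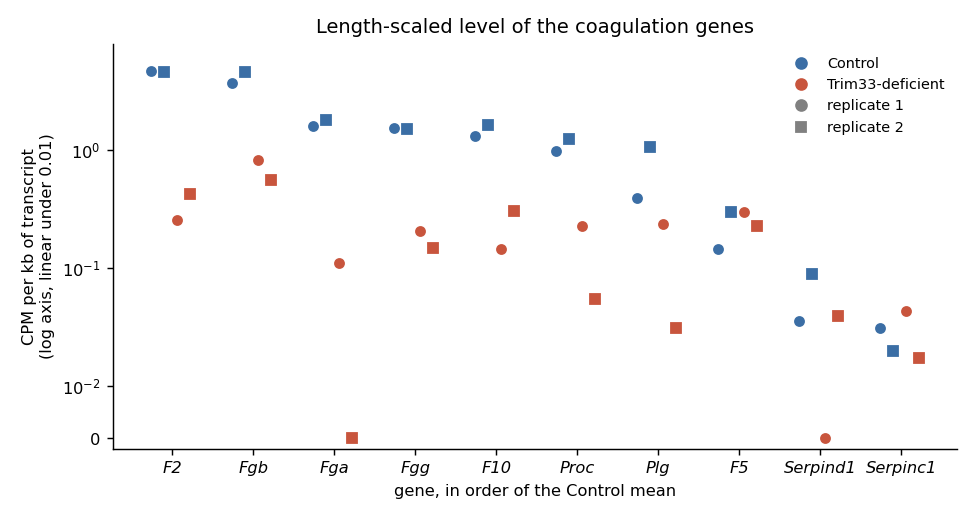
CPM per kb of longest coding transcript (vertical log axis, linear under 0.01) of the 10 genes, ordered by the Control mean, with Control in blue, Trim33-deficient in red, circles for replicate 1 and squares for replicate 2. The Control points fall from 4.70 CPM per kb for F2 to 0.0254 for Serpinc1, and the red points of F5 lie among its blue points.

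The balance of the fibrinogen chains was followed as the share of Fgb among the counts of the 3 genes. It was 67.4% (184 of 273 counts, exact 95% interval 61.5% to 72.9%) and 70.7% (64.7% to 76.2%) in the Control libraries. In the Trim33-deficient libraries it was 83.0% (44 of 53 counts, 70.2% to 91.9%) and 89.3% (25 of 28 counts, 71.8% to 97.7%). Both Trim33-deficient shares were above both Control shares, and their intervals overlapped those of Control. The summed level of the 3 genes was 23.0 ± 2.76 CPM in Control, 7.42 times the 3.11 ± 1.01 CPM of Trim33-deficient bodies (SD, n = 2 each).

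**Figure D4:**
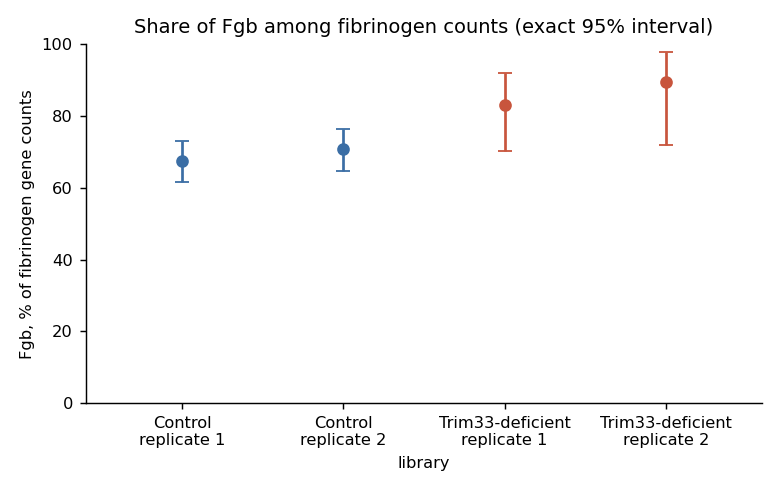
Share of Fgb in the counts of Fga, Fgb and Fgg (vertical axis, %) in each library, with exact 95% binomial intervals for counting error. The 2 Control libraries sit at 67.4% and 70.7% and the 2 Trim33-deficient libraries at 83.0% and 89.3%, with wide and overlapping intervals.

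Genes next to the members gave other values. In RefSeq gene order, Lrat and Rbm46 lie on one side of the fibrinogen genes and Plrg1, a splicing factor gene, on the other. Plrg1 was at 94.4 ± 4.95 CPM in Control bodies, against 94.7 ± 3.20 CPM under deficiency (SD, n = 2 each), with a log2 fold change of 0.0037 (SE 0.11, edgeR adjusted p = 0.994). Rbm46 was at −0.029 (SE 0.46, adjusted p = 0.989), and Lrat had at most 2 counts in a library. F10 lies between F7, the gene of the factor that starts the cascade with tissue factor, and Proz, which encodes protein Z. F7 was counted 9 and 1 times in Control and 0 and 0 times in Trim33-deficient libraries, and Proz had 11 and 4, and 3 and 4. The outer neighbours Mcf2l and Pcid2 were at −0.36 (SE 0.27) and −0.19 (SE 0.13), with edgeR adjusted p = 0.737 and 0.719.

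The other genes of clotting and fibrinolysis were taken from a list of 45, of which 32 had enough counts. Their median log2 fold change was 0.091, against −0.0014 over all genes tested, with 13 below and 19 above 0. The edgeR test called 0 of the 32. At an unadjusted p under 0.05 it had 1 lower and 1 higher, against 4.78% and 3.06% of all genes. DESeq2 called 1 lower, Serpinf2, against 0.807% of all genes. Serpinf2 encodes alpha-2-antiplasmin, the plasma inhibitor of plasmin. It was counted 138 and 113 times in Control and 14 and 4 times in Trim33-deficient libraries, or 10.8 ± 0.263 and 0.676 ± 0.472 CPM (SD, n = 2 each). The log2 fold change of Serpinf2 was −3.96 (SE 0.54; edgeR gave adjusted p = 0.271 and DESeq2 adjusted p = 1.2e-06), and it ran from −4.94 to −3.41 as libraries were left out. The authors' deposited table lists it at −4.00.

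Other plasma factors of the list ranged widely in level. Pros1, the protein S gene, was at 51.4 ± 3.24 CPM in Control bodies, against 50.8 ± 0.963 CPM under deficiency (SD, n = 2 each). F9, F11, Klkb1, F13b and Serpina5 had 0 counts in all 4 libraries, and F12 had 1 count in total. Serpina10, the protein Z-dependent inhibitor gene, was counted 16 and 16 times in Control and 9 and 3 times in Trim33-deficient libraries. Its log2 fold change of −1.58 (SE 0.64, edgeR adjusted p = 0.651) was −2.39 without Trim33-deficient replicate 1 and −1.09 without Trim33-deficient replicate 2. Fgl2, a fibrinogen-like protein gene, was at −0.996 (SE 0.49, adjusted p = 0.667). The tissue factor gene F3 was at 43.5 ± 7.29 CPM in Control bodies, against 57.3 ± 16.4 CPM under deficiency (SD, n = 2 each), at 0.40 (SE 0.25, adjusted p = 0.711). The tissue factor pathway inhibitor gene Tfpi was at −0.35 (SE 0.16, adjusted p = 0.664) and the urokinase gene Plau at 0.86 (SE 0.39, adjusted p = 0.663). In the list of the intrinsic and contact pathway, F8, the factor VIII gene, was at 0.50 (SE 0.59) and Serping1, the C1 inhibitor gene, at 0.30 (SE 0.29). Their adjusted p were 0.819 and 0.787 in edgeR.

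Among the thrombin receptor genes, F2r was at 0.78 (SE 0.48, edgeR adjusted p = 0.706), and its value was 0.29 with Control replicate 1 left out and 1.53 with Control replicate 2 left out. F2rl2, a further receptor of the family, was counted 0 and 6 times in Control and 28 and 90 times in Trim33-deficient libraries. Its log2 fold change of 4.11 (SE 1.34, adjusted p = 0.608) was 2.83 without Trim33-deficient replicate 2 and 8.95 without Control replicate 2, where only the Control library with 0 counts remains. F2, F10 and Proc are vitamin K-dependent, and a list of genes of the vitamin K cycle and of clotting factor secretion was tested too. The median of those 6 genes was 0.0003, and the vitamin K epoxide reductase gene Vkorc1 was at −0.28 (SE 0.22, adjusted p = 0.747). Furin, which encodes a propeptide-cleaving protease, was at 0.62 (SE 0.29, adjusted p = 0.664).

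**Figure D5:**
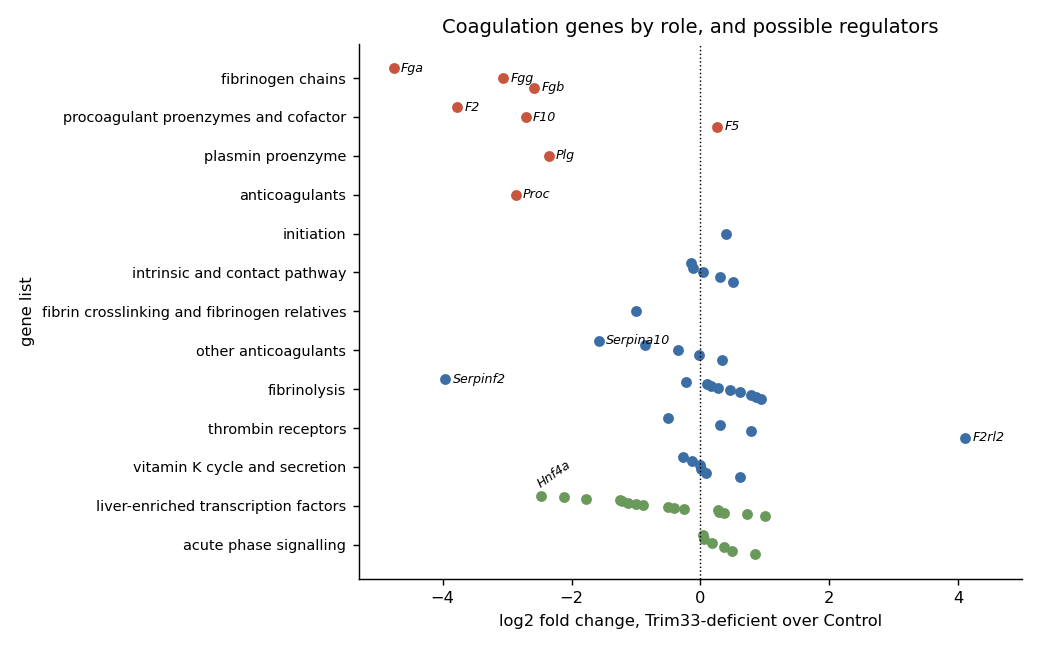
Log2 fold change, Trim33-deficient over Control (horizontal axis), of each gene with enough counts, by list, with the members in red, other clotting and fibrinolysis genes in blue and possible regulators in green. Points of members other than F5 lie at −2.35 and below, while the other clotting genes centre on 0.091, with Serpinf2 at −3.96 and F2rl2 at 4.11 at the ends.

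Liver-enriched transcription factors are known to act on plasma protein genes. Of 17 such genes, 16 had enough counts, 11 below and 5 above 0, with a median of −0.69. The edgeR test called 0 of them. At an unadjusted p under 0.05 it had 5 lower and 0 higher, against 4.78% and 3.06% of all genes. DESeq2 called 2 lower, Hnf4a among them, against 0.807% of all genes. The list was chosen with earlier results of these data known, so these counts are a description. Hnf4a was counted 345 and 440 times in Control and 77 and 81 times in Trim33-deficient libraries, a log2 fold change of −2.48 (SE 0.32, edgeR adjusted p = 0.252, DESeq2 adjusted p = 1.6e-07). Foxa3 was at −1.22 (SE 0.37, edgeR adjusted p = 0.594).

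Fibrinogen genes also respond to interleukin-6 signalling in the liver. The 6 genes of that pathway tested were all above 0, with a median of 0.27, and edgeR and DESeq2 called 0 of them. At an unadjusted edgeR p under 0.05, 1 was higher, against 3.06% of all genes. Il6st, the shared receptor chain gene, was at 133.1 ± 33.8 CPM in Control bodies, against 239.0 ± 23.8 CPM under deficiency (SD, n = 2 each), at 0.84 (SE 0.21, edgeR adjusted p = 0.544, DESeq2 adjusted p = 0.0636). The authors' deposited table lists it at 0.85, with a DESeq adjusted p of 0.0299. Stat3, Jak1 and Osmr were at 0.36, 0.17 and 0.50 (edgeR adjusted p = 0.678, 0.744 and 0.808). Osmr moved to 1.26 with Control replicate 1 left out and to 0.027 with Control replicate 2 left out.

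Visceral endoderm markers moved with the members. All 17, Hnf4a among them, had enough counts and were below 0 without overlap between groups, and their median log2 fold change was −3.31. Over all genes tested, 50.2% were below 0 and 21.4% were lower without overlap. The markers were chosen with earlier results of these data known, so these counts are a description. Their summed level was 1642 and 2013 CPM in Control and 354.5 and 371.6 CPM in Trim33-deficient libraries. In bulk RNA, fewer cells of a type and less RNA per cell cannot be told apart, and the part of these markers in the members' values was not tested. Per 1000 CPM of these markers, the 10 members together had 23.0 and 22.8 CPM in Control and 23.0 and 16.3 CPM in Trim33-deficient libraries. F2 had 5.74 and 4.61 against 1.42 and 2.30, and F5 had 0.659 and 1.12 against 6.31 and 4.60 CPM on that scale. The sum of the 10 includes F5, so it does not describe the members that were lower in CPM. The 3 fibrinogen genes had 12.9 and 12.4 against 10.8 and 6.44 CPM. On that scale Trim33-deficient replicate 2 had the lowest sum of the members. F2 and the fibrinogen genes were lower, and F5 higher, in both Trim33-deficient libraries. Much of the marker sum in those libraries came from Dab2 (117.4 and 147.6 CPM), Lrp2 (75.6 and 57.7) and Rbp4 (42.1 and 53.0 CPM). Their log2 fold changes of −1.31, −0.66 and −1.80 were smaller in size than the markers' median of −3.31. A lower value on that scale therefore does not show a larger decrease than in a typical marker. The marker sum is the divisor and was itself lower under deficiency, so a gene of unchanged CPM comes out higher on that scale. F5 overlapped between groups in CPM, so its higher values there give it no direction.

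Of the hepatocyte markers, 4 of 10 were at 0 in all 4 libraries, among them Alb, the albumin gene, and their summed level of 1.70 to 39.4 CPM came mostly from Tdo2. Markers of endothelium were present in every library, and Control replicate 1 had the lowest sum, 215.5 CPM, against 509.6, 303.9 and 338.5 CPM in Control replicate 2 and Trim33-deficient replicates 1 and 2. The markers did not move as one. Kdr and Tek were at 19.7 and 11.3 CPM in Control replicate 1, against 158.2 and 116.4 CPM in Control replicate 2. Cdh5 and Esam went the other way and were highest in Control replicate 1, at 122.6 and 19.6 CPM. F5 had its lowest level in that library too, at 14 counts, and a link between F5 and these markers was not tested. Megakaryocyte and platelet markers summed to 103.2 and 50.9 CPM in Control and 90.0 and 147.0 CPM in Trim33-deficient libraries, most of it from Itgb3 (98.1, 36.8, 78.8 and 120.3 CPM), an integrin gene that other cell types also express, with the defining marker Pf4 at 0, 1, 0 and 10 counts. Parietal endoderm markers summed to 3026 to 4234 CPM and macrophage markers to 13.4 to 31.6 CPM over the 4 libraries, with Ptprc at most 1 count. The part of these markers in the members' values was not tested.

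The genes whose levels over the 4 libraries were most like the mean of the 8 members were found by root mean square distance of centred log2 CPM. The nearest was Ttr, the transthyretin gene and one of the visceral endoderm markers above, at a distance of 0.066, counted 1086 and 1286 times in Control and 317 and 179 times under deficiency. Dpp4 (0.16), Npl (0.16), Mttp (0.18) and Slc13a3 (0.20) followed. Nearest to the mean of the 3 fibrinogen chains were Timd2 (0.17), Slc7a9 (0.18) and Ltk (0.23). Over only 4 libraries such likeness reflects mainly the size of the difference between groups. Fgb lay closest to the mean of the members, at 0.064, and F5 farthest, at 1.37. The mean includes F5, so the genes nearest to it need not be nearest to the members that were lower in CPM.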

How the data were processed

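Total RNA of day 7 embryoid bodies was sequenced in 4 libraries, 2 Control and 2 Trim33-deficient, grouped by title. Values are the authors' raw counts by gene symbol. Per the submitters' processing notes, STAR, HTSeq, DESeq and mm9 were used, without versions or roles. Whether counting used strand was not given. Rows that name no gene (no feature, 55.5% to 56.0% of reads; ambiguous, at most 0.200%) were left out. From the authors' deposited table of DESeq results, the log2 fold change, p-value and adjusted p-value were used. Its group letters were not matched to names, but log2 ratios recomputed as Trim33-deficient over Control differed from it by at most 0.0037.

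Genes were filtered with filterByExpr, scaled by TMM and tested with edgeR 4.0.16 (quasi-likelihood, Benjamini-Hochberg, threshold 0.05, two-sided) in R 4.3.3. SE was taken as the size of the log2 fold change over the root of F. The alternatives tried were edgeR's likelihood ratio test, DESeq2 1.42.0, voom in limma 3.58.1, 2 other scalings and filters, a replicate block and each library left out. The fits were tested on simulated data. Replicates were no duplicate deposits (chi-square per degree of freedom 35.7 and 24.4). Lengths are from GENCODE M21, and coding length was an alternative chosen after seeing the data. Named genes were the members, their neighbours, Trim33, clotting genes at an unadjusted p under 0.05, the 2 smallest p per clotting list and 4 per regulator list, and the nearest profiles. Lrat, F7, Proz, Pros1 and marker genes, and clotting genes without enough counts, are given by value. Members, lists and motifs were chosen with earlier results of these data known. Some genes that the naming rule covers are not reported here.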

Additional observations from a re-analysis of the deposited data

How the results depend on the processing

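Counts of calls depended on the test. Lower and higher genes numbered 2 and 0 in edgeR's quasi-likelihood test, 115 and 26 with DESeq2, 140 and 29 with the likelihood ratio test, 0 and 0 with limma voom, and 14 and 0 with no low-count filter. As each library was left out, they ran from 0 to 66 and from 0 to 25, both highest without Control replicate 2. Members called lower numbered 3 with DESeq2 and 6 with the likelihood ratio test, and 0 in the other fits. Other clotting genes called lower numbered 1 with DESeq2 and 1 with the likelihood ratio test, and regulators 2 and 3, against 0 in the other fits. The sign turned for Serping1 without Trim33-deficient replicate 2 (−0.011, and up to 0.57 without the others) and for F8 without Control replicate 1 (−0.038, and up to 1.30 without the others). Among the members it turned for F5, from 0.26 to −0.19 without Control replicate 1. The labels speak of independent pairs without saying that the replicate number marks them. Same-numbered deviations from group means correlated at 0.236, and with the replicate block there were 2 lower and 0 higher genes and 0 members. Of the 8 members, the log2 fold changes of Fga, Plg and Proc moved most, and 1 of their Trim33-deficient libraries had 0 or 1 counts. Plg also moved to −1.47 without Control replicate 2, as its Control counts were 14 and 30. Depth limits Serpinc1 and Serpind1 in every fit.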
